A study of Mus musculus with 6 samples.

Results

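Limbal and progenitor marker genes are 9 genes used to mark stem and early progenitor cells of the ocular surface or of related epithelia: Gpha2, Ifitm3, Cxcl14, Abcg2, Abcb5, Cdh13, Igfbp5, Sox9 and Lrig1. They were chosen by gene symbol from a table of 25006 genes, and all 9 symbols matched 1 gene each. Total RNA of mouse corneal epithelial sheets was sequenced in 3 libraries labelled EphA2 null (EphA2-/- in the design text) and 3 labelled wild type. EphA2, a tyrosine kinase at the cell surface, is the receptor for ephrin-A proteins of adjacent cells. By its title, the series concerns ciliogenesis, autophagy and the architecture of this epithelium. The labels give no further detail of the allele, and no strain, age, sex or number of animals, and nothing in them tells whether samples came from different animals, so p-values reflect only how far these samples scatter, which may be technical.

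The corneal epithelium is renewed from the limbus, the ring where cornea meets conjunctiva. Some stem cells there divide rarely. Progeny of limbal stem cells move inward as cycling basal cells, and differentiating cells then leave the basal layer upward. In the mouse, Gpha2 and Ifitm3 mark slow-dividing cells of the outer limbus. Abcg2 and Abcb5 encode membrane transporters used as limbal stem cell markers, largely from work on human tissue. Sox9 and Lrig1 mark progenitors in several epithelia, hair follicle included.

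Before any result, 2 properties of the libraries bear on every value. Epha2 was at 284, 652 and 578 CPM in EphA2 null 1, 2 and 3 (libraries are named by their label), against 298, 253 and 562 CPM in wild type 1, 2 and 3 (CPM, counts scaled to library size with TMM factors). The label EphA2 null did not go with less of it (log2 fold change 0.44 ± 0.39, SE; adjusted p = 0.9996, edgeR), so each direction by genotype rests on the label alone. The number in the sample titles falls in a lower range (EphA2 null 1 and wild type 1 and 2) or a higher range (EphA2 null 2 and 3 and wild type 3), and the libraries separated by it: 44.7% of 12847 tested genes passed an adjusted p of 0.05 between the ranges, against 0.00778% between the genotypes. EphA2 null 2 and 3 share 1 title number, as do wild type 1 and 2. The titles within each of these pairs differ only in a closing letter (N, R or B). What the number and the letter stand for is not given in the labels. The sheets carried the corneal epithelial genes Krt12 (13056 to 16014 CPM over the 6 libraries), Pax6 (814 to 940 CPM) and Krt5 (22791 to 30647 CPM). Total counts ran from 15308013 to 27586942 per library.

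Of the 9 marker genes, 8 passed the filter on low counts and Abcb5 did not. Their promoters differ in makeup, and 4 stretches are shown because they belong to the genes the results turn on: Gpha2 and Igfbp5, which lay on opposite sides of the title number difference, Cxcl14, which stood apart by genotype, and Ifitm3, an interferon-responsive gene. All are from RefSeq on GRCm38.p6, whose promoter table held 7 of the 9 genes. The Gpha2, Igfbp5 and Cxcl14 stretches lie upstream of the start site. The Ifitm3 stretch lies 2 to 28 bases past the RefSeq start site, within the annotated gene. Capitals mark matches, on either strand, to GAAANNGAAA, the core of an interferon response element, to the GC box GGGCGG, to the TATA box TATAAA, to the AP-1 site TGANTCA, to the E-box CACGTG, or to TGACG from the cyclic AMP response element; in Ifitm3 only the first was marked. 
Gpha2 (chr19:6226151-6226379, plus strand): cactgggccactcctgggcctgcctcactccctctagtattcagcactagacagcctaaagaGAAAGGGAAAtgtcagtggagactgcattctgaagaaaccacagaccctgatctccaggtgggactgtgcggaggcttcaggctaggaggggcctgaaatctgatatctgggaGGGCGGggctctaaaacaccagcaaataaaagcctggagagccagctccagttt
Igfbp5 (chr1:72874885-72875115, minus strand): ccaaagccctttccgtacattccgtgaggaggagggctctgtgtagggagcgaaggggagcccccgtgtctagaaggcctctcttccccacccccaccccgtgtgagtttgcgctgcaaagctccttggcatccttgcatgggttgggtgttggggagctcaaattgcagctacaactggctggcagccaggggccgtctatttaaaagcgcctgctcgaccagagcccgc
Cxcl14 (chr13:56296552-56296801, minus strand): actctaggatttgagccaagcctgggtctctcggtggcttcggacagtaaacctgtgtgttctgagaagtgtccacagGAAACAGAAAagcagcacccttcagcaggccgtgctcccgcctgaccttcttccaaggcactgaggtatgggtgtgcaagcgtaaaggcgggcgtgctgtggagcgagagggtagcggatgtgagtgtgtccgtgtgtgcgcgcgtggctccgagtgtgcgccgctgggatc
Ifitm3 (chr7:141010716-141010742, minus strand): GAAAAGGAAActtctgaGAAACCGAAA
GAAANNGAAA had 2 matches in the Ifitm3 window, 1 in that of Cxcl14 and 1 in that of Gpha2, and it occurred in 3.44% of all 32851 promoter windows of the same length. GGGCGG occurred in 35.7% of windows, TATAAA in 13.6%, TGANTCA in 7.81%, CACGTG in 7.15% and TGACG in 20.8%. The Cxcl14 window also held 3 matches to the GC box past the start site, outside the stretch shown. None of the 6 motifs matched in the Igfbp5 window, which says only that these letters are not there. A match is a run of letters and not a shown binding site.

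Per length, the detected marker genes fell into a higher and a lower tier. Levels here are CPM per kilobase of annotated exon, averaged over the 6 libraries (SD, n = 6), since raw counts also grow with gene length. Ifitm3, which encodes a membrane protein that restricts virus entry, had 59.7 ± 18.9, and Lrig1, a membrane protein that dampens EGF receptor signalling, had 54.1 ± 13.9. Gpha2, the alpha subunit of a glycoprotein hormone, had 50.2 ± 17.1, and Igfbp5, a secreted protein that binds insulin-like growth factors, had 36.5 ± 12.7. The ranges of these 4 overlapped from neighbour to neighbour. Igfbp5 stood above Sox9, the next gene, in 6 of 6 libraries. Sox9, a transcription factor, had 6.87 ± 2.44, and Abcg2, a transporter, 5.09 ± 1.38. The chemokine gene Cxcl14 had 2.77 ± 1.57, and Cdh13, a cadherin without an intracellular tail, 2.31 ± 0.471. Neighbours among these 4 overlapped too. With the longest transcript in place of all annotated exon, Abcg2 was at 7.25 and Cdh13 at 5.67, so their places in the lower tier depend on the length used.

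**Figure D1:**
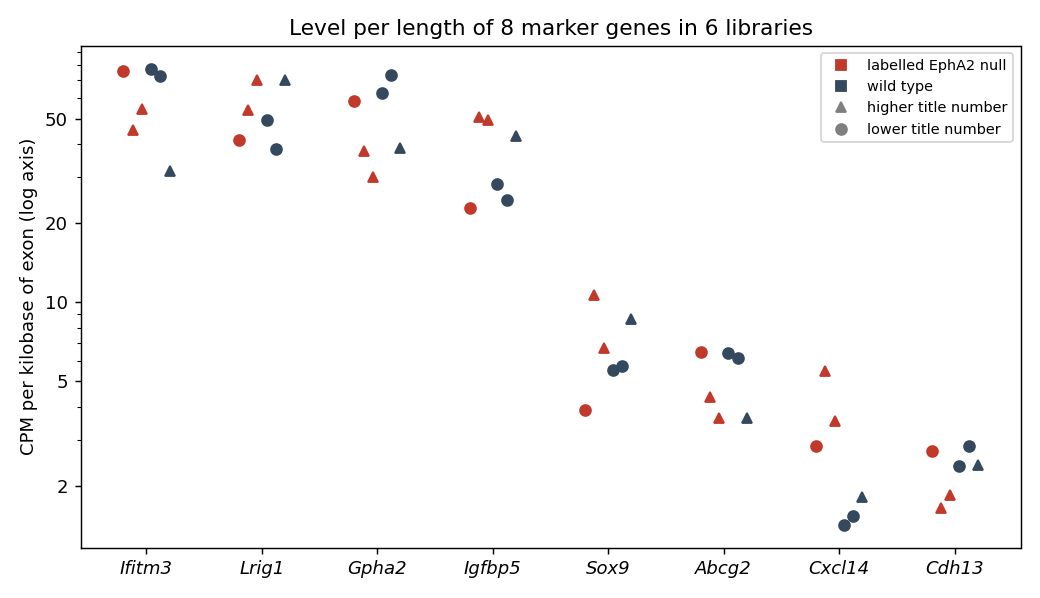
CPM per kilobase of exon (log axis) of the 8 marker genes that passed the filter, 1 point per library, in the order of their means; red, labelled EphA2 null; dark, wild type; triangles, higher title numbers; circles, lower ones. Igfbp5 and the genes to its left lie at 22.9 or more in every library and Sox9 and the genes to its right at 10.7 or less.

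The order within each tier changed with the title numbers. In the 3 libraries with higher title numbers Lrig1 was the highest, at 53.9, 70.6 and 70.4 CPM per kilobase in EphA2 null 2, EphA2 null 3 and wild type 3. Gpha2 was at 37.7, 30.1 and 38.6 in the same libraries. In the 3 libraries with lower title numbers Lrig1 was at 41.5, 49.7 and 38.4 in EphA2 null 1, wild type 1 and wild type 2, below Gpha2 at 58.6, 62.9 and 73.6. Sox9 was likewise above Abcg2 in the 3 libraries with higher title numbers and below it in the 3 with lower ones.

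Abcb5 (ENSMUSG00000072791, chromosome 12, 118867824 to 118966421, minus strand, GRCm38) was at the edge of detection. Its counts were 1, 0 and 1 in EphA2 null 1, 2 and 3, against 0, 1 and 0 in wild type 1, 2 and 3. The depth-adjusted ratio of these sums was 1.53, with an exact 95% interval of 0.0796 to 90.3 that covers counting error only, so no difference was detectable at this depth. A library with 0 counts allows a level of up to 0.148 CPM in EphA2 null 2, 0.145 CPM in wild type 1 and 0.203 CPM in wild type 3 (3 counts). None of its 50-base words occurred in transcripts of other genes. The related transporter genes Abcb1a, Abcb1b and Abcb4 averaged 0.32, 0.466 and 0.207 CPM, also below the filter.

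For the comparison of genotypes, Cxcl14 was the marker gene that stood apart, without passing the test over all genes. Cxcl14 (ENSMUSG00000021508, chromosome 13, 56288643 to 56296551, minus strand, GRCm38) encodes a chemokine made by many epithelia. Its level was 5.18, 10 and 6.46 CPM in EphA2 null 1, 2 and 3, against 2.6, 2.79 and 3.31 CPM in wild type 1, 2 and 3. Each library labelled EphA2 null lay above each wild type library. The counts behind these values were 113, 204 and 173, against 54, 48 and 49. The libraries labelled EphA2 null averaged 7.22 ± 2.51 CPM, against 2.9 ± 0.364 CPM for wild type (SD, n = 3 per genotype). The log2 fold change was 1.32 ± 0.29 (SE), or 2.49-fold, and the quasi-likelihood test of edgeR over 12847 genes gave an unadjusted p of 0.00246 and an adjusted p of 0.9996. Its p ranked 9 among all tested genes. The log2 fold change was 1.31 within the higher and 0.94 within the lower title numbers, each with 1 library on one side (wild type 3 or EphA2 null 1). Fitted together with the range it was 1.12 ± 0.24 (adjusted p = 0.805, edgeR; 0.1035, DESeq2). It was the 1 of 8 marker genes whose genotypes did not overlap, or 12.5%, where 3.73% of all tested genes were separated, 1.71% with every library labelled EphA2 null above and 2.02% with every one below wild type.

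None of the other 7 tested marker genes passed an adjusted p of 0.05 between the genotypes. With Cxcl14 the count called was 0 of 8 in edgeR, DESeq2 and limma voom, against the 0.00778% of all genes called by edgeR. At an unadjusted p under 0.05 in edgeR it was 1 of 8, against 1.18% of all genes. Gpha2 averaged 32.4 ± 11.3 CPM under the EphA2 null label, against 44.9 ± 13.8 CPM for wild type (SD, n = 3 per genotype), a log2 fold change of -0.47 ± 0.32 (SE). For Igfbp5 it was 0.36 ± 0.34 and for Cdh13 -0.29 ± 0.22. With the range in the model these 3 values were -0.21 ± 0.12 for Gpha2, 0.01 ± 0.12 for Igfbp5 and -0.19 ± 0.14 for Cdh13. Ifitm3 (-0.05 ± 0.35), Abcg2 (-0.17 ± 0.29), Sox9 (0.10 ± 0.37) and Lrig1 (0.07 ± 0.27) lay closer to 0 than 1 SE. Each of these 4 changed sign once the range entered the model, to 0.33 ± 0.16, 0.09 ± 0.11, -0.26 ± 0.20 and -0.13 ± 0.14 in the same order. The smallest unadjusted p of the 7 genes was then 0.0717, for Ifitm3 (edgeR). For all 7 the adjusted p was 0.9996 in edgeR, with or without the range. The median over the 8 genes was 0.01, equal to the 0.01 over all tested genes. In the fit by genotype alone, an SE of 0.22 to 0.37 leaves differences of that order undetected. Larger ones can go uncalled too, since Cxcl14 at 1.32 ± 0.29 did not pass over all genes.

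**Figure D2:**
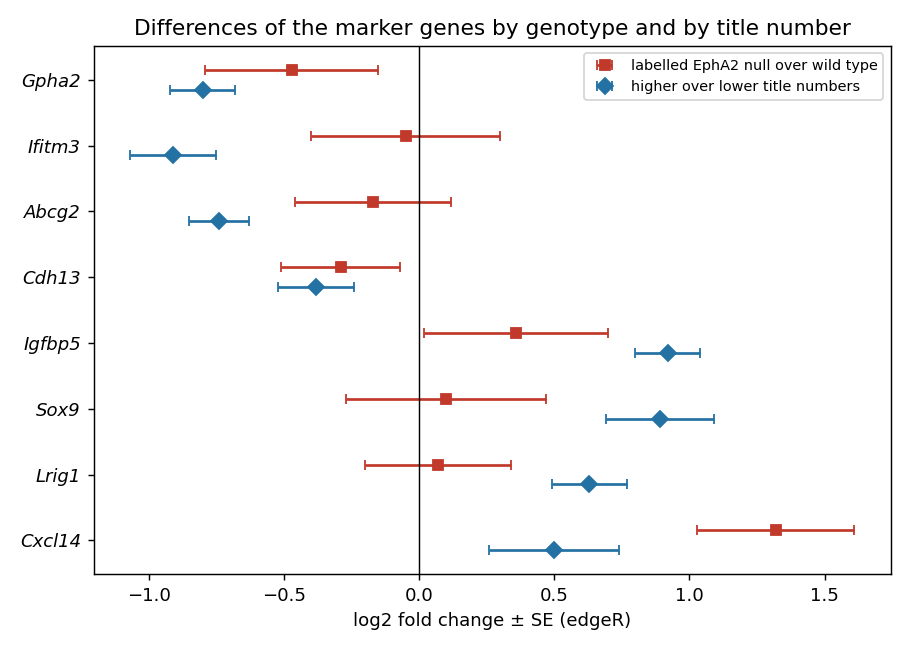
Log2 fold change ± SE (edgeR) of the 8 tested marker genes, libraries labelled EphA2 null over wild type (squares) and higher over lower title numbers with genotype in the model (diamonds). By genotype the error bar of Cxcl14 (1.32 ± 0.29) is the farthest from 0; by title number the genes from Gpha2 to Cdh13 lie below 0 and the others above it.

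The larger part of the variation of most marker genes ran with the title numbers, and it split them into a group that was lower and a group that was higher at higher title numbers. The comparison was taken up because earlier results of these data showed the separation, it is not one the labels name, and genotype was kept in the model. Of the 8 genes, 3 were lower and 3 higher at an adjusted p under 0.05 in edgeR, or 75%, where 20.1% of all genes were called lower and 24.6% higher. The ranges did not overlap for 6 of 8, or 75%, against 59.0% of all genes, 30.2% with the higher title numbers all above and 28.8% with them all below. Since 44.7% of all genes were called, 6 of 8 genes is a count with little weight of its own. Without EphA2 null 1, 4 of 8 were called, namely Gpha2, Ifitm3, Abcg2 and Igfbp5, against 8.47% of the 13024 genes tested in those 5 libraries. The title number range held 89.4%, 94% and 94.1% of the variance of log2 CPM in Gpha2, Abcg2 and Igfbp5, and genotype 26.4%, 4.82% and 11% in the same order; the shares overlap, since the genotypes are unequally spread over the ranges. For Cxcl14 the order was the other way, 35.6% for the range and 81.7% for genotype.

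The lower group held both outer limbal markers. Gpha2 (ENSMUSG00000024784, chromosome 19, 6226380 to 6227768, plus strand) had 29.1, 23.2 and 29.8 CPM in EphA2 null 2, EphA2 null 3 and wild type 3, with higher title numbers, against 45.1, 48.4 and 56.6 CPM in EphA2 null 1, wild type 1 and wild type 2. The ranges did not overlap. The log2 fold change, higher over lower title numbers, was -0.80 ± 0.12 SE (adjusted p = 0.00259, edgeR). It was -0.79 within the libraries labelled EphA2 null and -0.82 within wild type. Such values within a genotype rest on 1 library on one side, EphA2 null 1 or wild type 3. Ifitm3 (ENSMUSG00000025492, chromosome 7, 141009586 to 141010770, minus strand) had 30.9, 37.0 and 21.4 CPM in the same 3 libraries with higher title numbers, against 51.6, 52.6 and 49.3 CPM in the 3 with lower ones. It too did not overlap, with wild type 3 the lowest, and its log2 fold change was -0.91 ± 0.16 (SE; adjusted p = 0.00368, edgeR). The difference was -0.60 within the libraries labelled EphA2 null and -1.25 within wild type; the interaction of genotype and range was 0.65 ± 0.23, with an unadjusted p of 0.0228 and an adjusted p of 0.999 in edgeR. No gene passed for the interaction in edgeR (0 of 12847, and 605, or 4.71%, at an unadjusted p under 0.05).

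Abcg2 (ENSMUSG00000029802, chromosome 6, 58584523 to 58695676, plus strand), the transporter that lets stem cells pump out dyes, had 35.3, 29.5 and 29.5 CPM in EphA2 null 2, EphA2 null 3 and wild type 3, against 52.5, 52.2 and 49.8 CPM in EphA2 null 1, wild type 1 and wild type 2. The 3 libraries with lower title numbers lay close together and above the others. Its log2 fold change was -0.74 ± 0.11 (SE; adjusted p = 0.00235, edgeR). Cdh13 (ENSMUSG00000031841, chromosome 8, 118283733 to 119324921, plus strand), which encodes a cadherin held in the membrane by a lipid anchor, had 18.5, 20.8 and 26.9 CPM in the 3 libraries with higher title numbers, against 30.6, 26.8 and 31.8 CPM in the 3 with lower ones. These overlapped, since wild type 3 lay just above wild type 1. The log2 fold change was -0.38 ± 0.14 (adjusted p = 0.0568, edgeR), and it passed in 6 of 14 alternatives, among them the range without genotype in the model (-0.44, adjusted p = 0.032).

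The higher group held a growth factor binding protein, a transcription factor and a receptor regulator. Igfbp5 (ENSMUSG00000026185, chromosome 1, 72857932 to 72874884, minus strand) had 306, 296 and 259 CPM in EphA2 null 2, EphA2 null 3 and wild type 3, against 138, 170 and 148 CPM in EphA2 null 1, wild type 1 and wild type 2. Without overlap, the log2 fold change was 0.92 ± 0.12 (SE; adjusted p = 0.00198, edgeR), or 1.89-fold. Sox9 (ENSMUSG00000000567, chromosome 11, 112782224 to 112787760, plus strand) had 44.3, 27.8 and 35.7 CPM in the 3 libraries with higher title numbers, against 16, 22.9 and 23.8 CPM in the 3 with lower ones. The ranges were separate by a small gap, and the spread inside the higher range was wide. Its log2 fold change was 0.89 ± 0.20 (adjusted p = 0.00981, edgeR), and without EphA2 null 1 it was 0.61 and did not pass (adjusted p = 0.1431).

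Lrig1 (ENSMUSG00000030029, chromosome 6, 94604529 to 94700158, minus strand) had 301, 394 and 393 CPM in the 3 libraries with higher title numbers, against 232, 277 and 214 CPM in the 3 with lower ones. The log2 fold change was 0.63 ± 0.14 (SE; adjusted p = 0.00856, edgeR). It did not pass without EphA2 null 1 (0.67, adjusted p = 0.07283) or without wild type 3 (0.57, adjusted p = 0.07162). Lrig1 shares 144 bases of exon with Slc25a26 on the opposite strand, and the strand setting of the counts is not given in the sources used here. Cxcl14 had 10, 6.46 and 3.31 CPM in the 3 libraries with higher title numbers, against 5.18, 2.6 and 2.79 CPM in the 3 with lower ones. These overlapped and did not pass (log2 fold change 0.50 ± 0.24, adjusted p = 0.1138, edgeR).

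**Figure D3:**
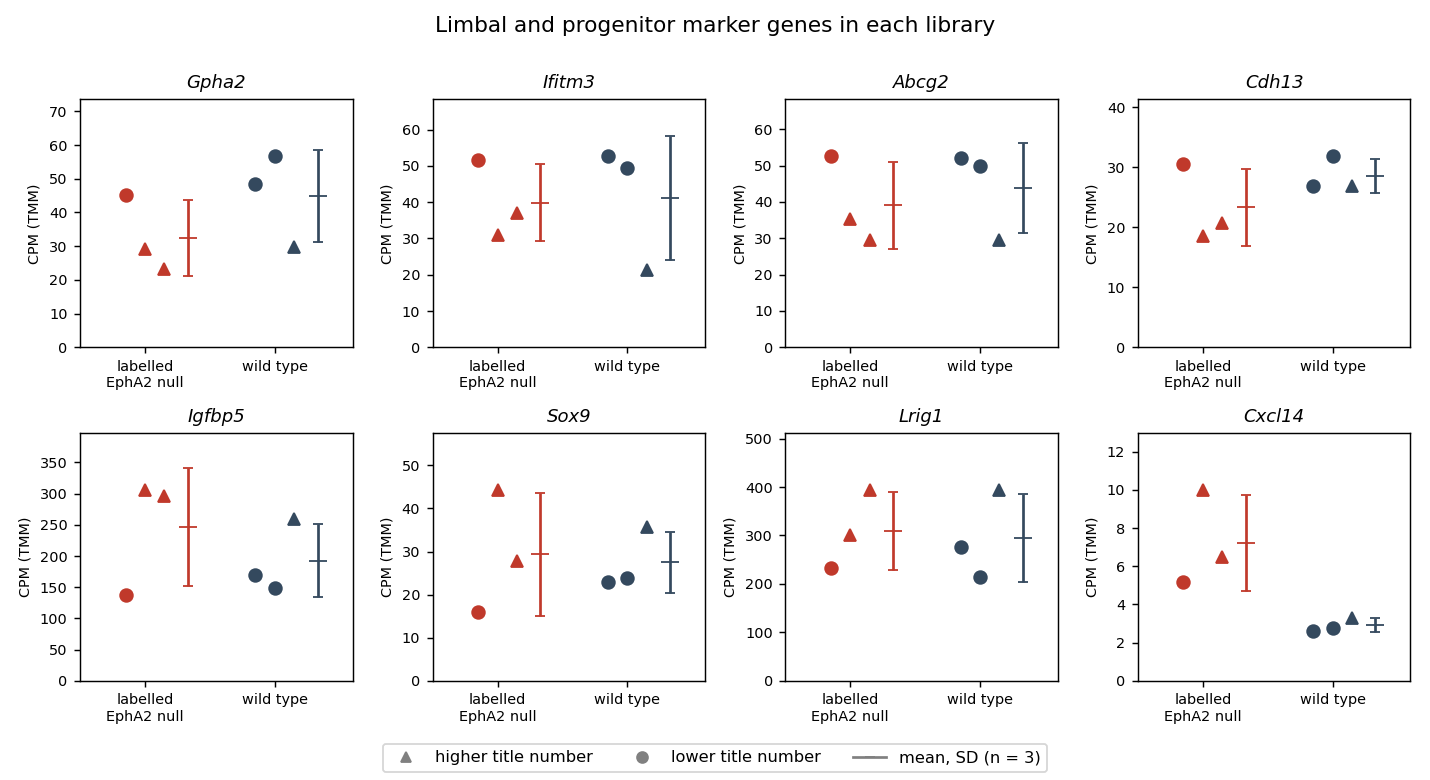
CPM (TMM-normalised) of the 8 tested marker genes in each library, labelled EphA2 null left and wild type right; triangles, higher title numbers; circles, lower ones; bars, mean and SD of the 3 libraries of a genotype. In Gpha2, Ifitm3 and Abcg2 the triangles lie below the circles, in Igfbp5, Sox9 and Lrig1 above them, and in Cxcl14 the genotypes do not overlap.

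Close relatives and binding partners of the marker genes did not all follow them. Of 19 tested genes of the same families, 4 were higher and 6 lower at higher title numbers, and 0 passed by genotype in edgeR. Over all tested genes 24.6% were called higher and 20.1% lower by title number. Ifitm1, named for its kinship to Ifitm3 after its values were seen, was at 1042, 756 and 615 CPM in EphA2 null 2, EphA2 null 3 and wild type 3, against 1231, 976 and 924 CPM in the libraries with lower title numbers, with a log2 fold change of -0.54 ± 0.14 (adjusted p = 0.0148, edgeR). Ifitm2, also named after its values were seen, had -0.11 ± 0.11 and did not pass. Of the 50-base words of Ifitm3 transcripts 10% also occur in other genes, Ifitm1 and Ifitm2 among them, so a part of its reads could be split between copies. Sox4 was lower (-1.20 ± 0.17, adjusted p = 0.00235) and Sox13 higher (0.94 ± 0.14, adjusted p = 0.0025), both transcription factor genes of the Sox9 family. Cdh1, the main epithelial cadherin gene, was higher (0.85 ± 0.14, adjusted p = 0.00301), and Cxcl17, a mucosal chemokine gene, was lower (-3.37 ± 0.45, adjusted p = 0.00203), all in edgeR. Cxcl17 was at only 0.737, 0.299 and 0.27 CPM in EphA2 null 2, EphA2 null 3 and wild type 3, so its value rests on few counts.

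Among 17 tested genes of ligands and receptors that partner with the marker genes, 7 were higher and 4 lower at higher title numbers. The shares over all tested genes were 24.6% and 20.1%. The median log2 fold change of these partner genes was 0.45, against -0.01 over all genes. Igf1r, the receptor for the growth factors that Igfbp5 binds, was higher by 0.77 ± 0.10 (adjusted p = 0.00188, edgeR). Erbb2 (1.15 ± 0.15, adjusted p = 0.0020) and Erbb3 (0.94 ± 0.14, adjusted p = 0.00238), receptors of the family that Lrig1 dampens, were higher too, as was Tgfa, which encodes a ligand of the EGF receptor (1.20 ± 0.11, adjusted p = 0.00174). Egfr, the EGF receptor gene itself, had 0.12 ± 0.10 and did not pass (adjusted p = 0.362). The 4 lower genes included the chemokine receptor genes Cxcr4 (-1.78 ± 0.44, at an average of only 0.664 CPM) and Ackr3 (-0.59 ± 0.16). The others were Btc, another EGF receptor ligand gene (-0.36 ± 0.10), and Met, the hepatocyte growth factor receptor gene (-0.31 ± 0.10). Those 4, and Egfr, were named after their values were seen. Gphb5, the beta subunit that pairs with Gpha2 in the hormone thyrostimulin, averaged 1.25 CPM and did not pass (-0.87 ± 0.62), while Tshr, the receptor of that hormone, averaged 0.073 CPM. Igf1, Cxcl12 and Cga were at 0 counts in every library. By genotype 0 of the 17 passed in edgeR, with a median of -0.04.

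Other limbal and basal epithelial genes were also split at higher title numbers, 8 higher and 5 lower of 28 tested, with a median of -0.08. Over all tested genes 24.6% were called higher and 20.1% lower, so the split of this list was near that of all genes. Notch1, a receptor gene, was higher (1.59 ± 0.10, adjusted p = 6.03e-04, edgeR), as was Itgb4, the hemidesmosomal integrin gene (1.20 ± 0.20, adjusted p = 0.00304). Wfdc2 was lower (-0.62 ± 0.09, adjusted p = 0.0023), and so was Vim, an intermediate filament gene of mesenchymal and other cells (-1.94 ± 0.33, adjusted p = 0.00332). Vim averaged only 1.07 CPM. The basal keratin gene Krt15, often used as a limbal marker, had -0.31 ± 0.15 and did not pass (adjusted p = 0.129), nor did Krt14 (-0.29 ± 0.31) or the progenitor transcription factor gene Trp63 (0.20 ± 0.09, adjusted p = 0.105). By genotype the list had a median of 0.04, with 0 of 28 called in edgeR. Of 20 genes of differentiated cornea 8 were higher and 3 lower by title number, Klf4 (1.46 ± 0.19) and Elf3 (0.72 ± 0.12) among the higher, Spink7 (-1.28 ± 0.17) and Cyp4b1 (-1.52 ± 0.25) among the lower. Of 20 proliferation genes 1 was higher and 10 were lower, with a median of -0.29, Top2a (-0.96 ± 0.10), Cdk1 (-0.87 ± 0.09), Birc5 (-0.84 ± 0.10) and Ccnb1 (-0.88 ± 0.11) among the lower. The higher gene was Ccnd1 (0.57 ± 0.08), named after its value was seen, and 9 did not pass.

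**Figure D4:**
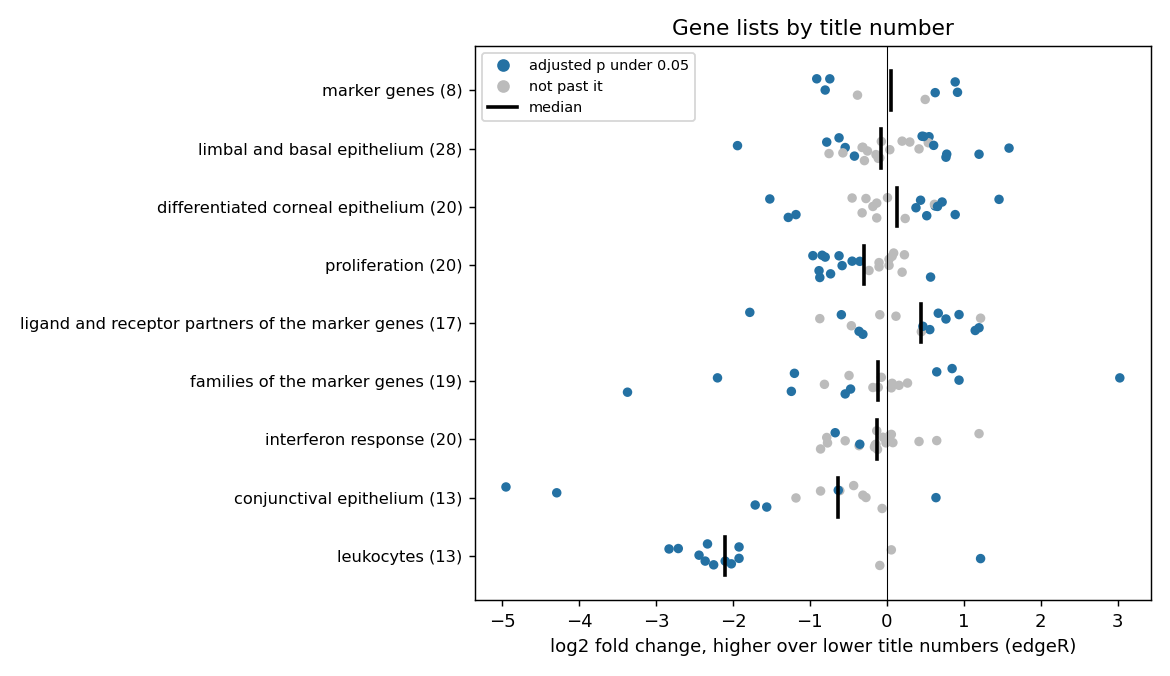
Log2 fold change, higher over lower title numbers (edgeR, genotype in the model), of each tested gene in 9 lists, with the number tested in parentheses; blue, adjusted p under 0.05; grey, not past it; black bar, list median. The marker genes lie on both sides of 0 (median 0.06), and the leukocyte list has its median at -2.10.

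Some markers of other cell types also ran with the title numbers. Of 13 tested leukocyte markers 10 were lower and 1 higher at higher title numbers. Over all tested genes 20.1% were called lower and 24.6% higher. Among the lower were H2-Aa at -2.83 ± 0.36, Ptprc at -2.71 ± 0.36, Cd74 at -2.10 ± 0.31 and H2-Eb1 at -2.25 ± 0.35. Ptprc was at only 0.246 to 0.27 CPM at higher title numbers, so its value rests on few counts. The 1 higher was Cd52 (1.22 ± 0.19), named after its value was seen. The summed level of all 18 leukocyte markers was 313 to 364 CPM at higher and 327 to 374 CPM at lower title numbers, with Itgam alone averaging 294 CPM. Of 13 tested conjunctival genes 5 were lower and 1, Muc4, was higher (0.64 ± 0.15), against the same 20.1% and 24.6% of all genes. The median of this list was -0.63, and 12 of the 13 genes lay below 0. The goblet cell mucin gene Muc5ac had 2.21, 1.68 and 0.675 CPM in EphA2 null 2, EphA2 null 3 and wild type 3, against 58.7, 38.5 and 5.24 CPM in EphA2 null 1, wild type 1 and wild type 2. Muc5b was lower by 4.29 ± 0.71 on the log2 scale, but its ranges overlapped, at 0.197, 0.597 and 0.202 CPM in EphA2 null 2, EphA2 null 3 and wild type 3, against 9.99, 2.94 and 0.466 CPM in EphA2 null 1, wild type 1 and wild type 2. Agr2, a secretory cell gene, was lower by 1.71 ± 0.25 without overlap. The summed level of all 15 conjunctival genes was 13931 to 16893 CPM at higher and 12872 to 15072 CPM at lower title numbers. Most of it was Muc4, the 1 higher gene, which averaged 6713 CPM, with Lypd2 (3211 CPM) and Krt13 (3096 CPM). The sum therefore says little of the other conjunctival genes. The part of these cells in the levels of Gpha2, Ifitm3 and Abcg2 was not tested, and in sheets sequenced whole, fewer cells of a type and less RNA per cell cannot be told apart.

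The remaining lists gave few calls by title number. The interferon response had 0 higher and 2 lower of 20, Gbp2 (-0.35 ± 0.10, adjusted p = 0.0198) and Ifit2 (-0.67 ± 0.23, adjusted p = 0.0465), while Ifitm3, which the list does not hold, fell by 0.91 on the log2 scale. Stromal genes had 1 lower of 3 tested, Aldh1a1 (-1.26 ± 0.16), with Kera and Lum, the defining keratocyte genes, at 0 counts in every library. Their summed level was 142 to 175 CPM at higher and 294 to 301 CPM at lower title numbers, and most of it was Aldh1a1, which averaged 175 CPM. The other tested stromal genes, Fbln1 (0.33 ± 0.15) and Pdgfra (0.29 ± 0.20), did not pass. Melanocyte genes had 1 higher of 4, Kit (0.78 ± 0.18), with Tyr at 0 counts. Their summed level, 335 to 383 CPM at higher and 151 to 246 CPM at lower title numbers, was mostly Kit, which averaged 270 CPM, while Dct, Pmel and Mitf averaged 4.19, 5.24 and 1.24 CPM and did not pass. Vessel genes had 0 called of 2 in edgeR, with Kdr, Emcn and Lyve1 at 0 counts and a sum of at most 6.07 CPM, and nerve and Schwann cell genes had 0 called of 3. Over the 12 other lists 77 of 162 tested genes, or 47.5%, were called by title number, near the 44.7% of all genes. By genotype 0 of the 162 were called by edgeR, DESeq2 or limma voom, and 1 of them, the myelin gene Mobp, reached an unadjusted p of 0.00283 (edgeR).

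The genes whose levels ran most like each marker gene over the 6 libraries were named by Pearson's r of log2 CPM, among 4557 genes that averaged 1 CPM or more with an SD of 0.3 or more. Because the 6 libraries fall into the title number ranges, a high r mostly restates that split, and it is given as a description. For Gpha2 they were Serpina9 (r = 0.995), Zfp119a (0.994) and Fmo2 (0.993), for Ifitm3 Kbtbd3 (0.993), Cd320 (0.992) and Polr2i (0.99), and for Abcg2 Gstm1 (0.999), 1110059E24Rik (0.998) and Rnf122 (0.995). Cdh13 ran most like Sostdc1 (0.996), Tefm (0.996) and Ackr3 (0.991). Igfbp5 ran most like Brd2, Myo10 and Sesn2 (0.999 each), Sox9 like Cebpb (0.993), Irf2bp2 (0.99) and Zswim6 (0.99), and Lrig1 like Unkl (0.996), Bicral (0.996) and Tubgcp6 (0.994). Cxcl14, with its genotype pattern, ran most like Hist2h2bb (0.982), the stress keratin gene Krt16 (0.962) and Otulinl (0.96). By genotype their log2 fold changes were 1.43 for Hist2h2bb, which averaged only 1 CPM, 1.69 for Krt16 and 0.63 for Otulinl. Krt16 was also called higher at higher title numbers (log2 fold change 1.07, adjusted p = 0.0419, edgeR).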

How the data were processed

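Total RNA of mouse corneal epithelium was sequenced on an Illumina HiSeq, per the series design text. The deposited values are raw counts per gene, whole numbers under Ensembl identifiers; for the aligner, counting program, strand setting, build and annotation the sources used here give no entry. GENCODE M21 on GRCm38 named 24991 of 25006 identifiers and gave positions and exon lengths. Counts were normalised with TMM, filtered with filterByExpr (12847 genes left) and tested with edgeR 4.0.16 (glmQLFit, glmQLFTest) in R 4.3.3, by genotype alone and, for the title number range, with genotype as a term. The two-sided p-values were adjusted over all tested genes (Benjamini-Hochberg) and called under 0.05. The SE is the log2 fold change divided by the square root of F. DESeq2 1.42.0 and limma 3.58.1 (voom) were alternatives. Intervals and floors cover counting error only. Depth held the counting error of a tested marker gene at 14.4% of its count or less in every library. The 6 libraries differed from each other beyond sampling noise and were counted separately.

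The marker genes, the 12 other lists and the title number comparison were chosen with earlier results of these data known. Named genes are the marker genes, the called genes of each list with the smallest p (at most 4) and the 3 genes most like each marker gene; further names were added after values were seen.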

Additional observations from a re-analysis of the deposited data

How the results depend on the processing

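By genotype 0 of the 8 tested marker genes passed under any of the 16 alternatives, and Cxcl14 stayed above 0 in each (1.01 to 1.5; adjusted p of at least 0.1035). Calls over all genes were 1 in edgeR, 5 in DESeq2, 0 when libraries of the same title number were summed, and 17 when DESeq2 also fitted the range, an alternative chosen after seeing the data. The log2 fold changes near 0 turned sign. With the range fitted too, Ifitm3 was 0.33 in edgeR and DESeq2 and 0.29 in limma voom, Abcg2 0.09, 0.09 and 0.08, Sox9 -0.26 and Lrig1 -0.13 in each; with shared title numbers summed they were 0.23, 0.05, -0.22 and -0.14, and Ifitm3 was 0.02 in limma voom. With 1 library left out, Ifitm3 ran from -0.37 to 0.17, Abcg2 from -0.44 to 0.00, Sox9 from -0.32 to 0.39 and Lrig1 from -0.15 to 0.32. Gpha2 ran from -0.79 to -0.27, Igfbp5 from 0.18 to 0.65 and Cdh13 from -0.54 to -0.15, each farthest from 0 without EphA2 null 1. Without EphA2 null 1, all libraries labelled EphA2 null have higher title numbers, so genotype and range are less well told apart in that fit. The cause was not tested.

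By title number Gpha2, Ifitm3, Abcg2 and Igfbp5 passed, with their direction, under all 14 alternatives; Sox9 failed in 1, Lrig1 in 2 and Cdh13 passed in 6. Calls over all genes were 1103 to 5803 with 1 library left out, against 5740 with all 6; they were 1103 without EphA2 null 1, 3549 without wild type 2 and 3702 without wild type 3. Calls in the 12 other lists were 29 to 103, lowest without EphA2 null 1. With library totals in place of TMM the median of all genes moved from -0.01 to -0.13 and the higher share of calls from 54.9% to 40%; the called marker genes kept their directions. No paired analysis was made. The labels give no replicate numbers shared between the genotypes, and they do not explain the closing letter of the titles.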
